A study of Mus musculus with 12 samples.

Results

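Expression of 6 genes of the canonical Wnt pathway, out of 36186 gene rows, was examined in the developing bones of the mouse forearm. The genes are the 4 members of the LEF/TCF family of DNA-binding factors (*Lef1*, *Tcf7*, *Tcf7l1* and *Tcf7l2*), *Ctnnb1*, which encodes beta-catenin, and *Axin2*, a feedback gene widely used as a readout of the pathway. The members were chosen by their symbols and with their measured values in all groups already known, so their levels and differences are given here as a description and carry no test. All 6 passed the filter on low values, at least 5 NRPKM in at least 3 of 12 libraries, *Lef1* through WT libraries and *Tcf7* through proliferative and hypertrophic libraries. NRPKM is the authors' name for RPKM (reads per kilobase of transcript, scaled to library size) normalized further between libraries.

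Canonical Wnt signaling works through the stability of beta-catenin. Without a Wnt ligand, a destruction complex built on Axin and APC marks beta-catenin for degradation, and LEF/TCF factors sit on DNA with Groucho (TLE) co-repressors. With a ligand, beta-catenin accumulates, enters the nucleus, displaces the co-repressors and turns LEF/TCF factors into activators. In the growth plate the pathway is known for holding back early chondrocyte differentiation, for promoting the passage to hypertrophy and for directing cells of the perichondrium towards bone. TCF7L1 is known mainly as a repressor, while LEF1 and TCF7 act mostly as activators and TCF7L2 as either.

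RNA-Seq had been carried out on cells taken by laser capture microdissection (LCM) from the forelimb zeugopod (radius and ulna) of E15.5 embryos on a mixed 129/CD-1 background. Wild type (WT) zeugopods gave 3 compartments of the growth plate with 3 libraries each: resting (R-WT), proliferative (P-WT) and hypertrophic (H-WT). The labels name the last one hyperproliferative, and the compartment name of the study is used here. The other 3 libraries came from *aadd* mutants, homozygous for mutations in the first exons of 6 genes, *Hoxa9*, *Hoxa10*, *Hoxa11*, *Hoxd9*, *Hoxd10* and *Hoxd11*. Each mutation places a LoxP site and a small frameshifting deletion in the exon, and the study's methods mention no Cre or other transgene. In *aadd*, chondrocytes were collected without splitting them by zone. The labels assign them to the resting compartment, so zone and genotype cannot be fully told apart in a comparison with WT. By the study's account, most captured cells were chondrocytes and some came from the perichondrium next to the cartilage. The study describes its 3 sets of compartments as independent, without saying whether each came from 1 embryo or from pooled ones.

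Depth and identity of the libraries were read from the same table. Between 1886792 and 3236246 reads, read from the value of a single read, stood behind the values of a library. All 6 targeted Hox genes had values above 0 in every *aadd* library, from 5.17 NRPKM for *Hoxa11* to 52.1 NRPKM for *Hoxd10*, and since a frameshift need not remove a transcript, their levels do not check the genotype. Summed levels of 10 chondrocyte markers, 9 of which had a row, lay between 2321 and 4611 NRPKM in the R-WT, P-WT and *aadd* libraries. In H-WT the sum was 2803 in replicate 1 but 630 and 906 in replicates 2 and 3, while 10 hypertrophic markers gave 1831, 3538 and 3883. Endothelial markers summed to 20.8, 303 and 210 in H-WT and to 4.83 to 40.6 elsewhere, and osteoclast and macrophage markers to 51.0, 1290 and 954 against at most 41.1 elsewhere. H-WT replicate 1 thus stood apart, and an H-WT difference of each member and those of some list genes are also given without it. R-WT replicate 2 had an epidermal sum of 219, against 7.74 to 34.5 in all other libraries. T cell markers, which matter because *Lef1* and *Tcf7* are also T cell genes, summed to between 20.1 and 43.4 in all 12 libraries. The 2 of these markers that passed the filter, *Cd3d* and *Ptcra*, gave 9.31 to 26.7 and 4.33 to 13.9. *Cd3e* did not pass 2.29 in any library, *Cd2* and *Zap70* were listed at 0 throughout R-WT and *Cd2* and *Cd3g* throughout *aadd*. In mixed samples of this kind, fewer cells of a type and less RNA per cell cannot be told apart.

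**Figure D1:**
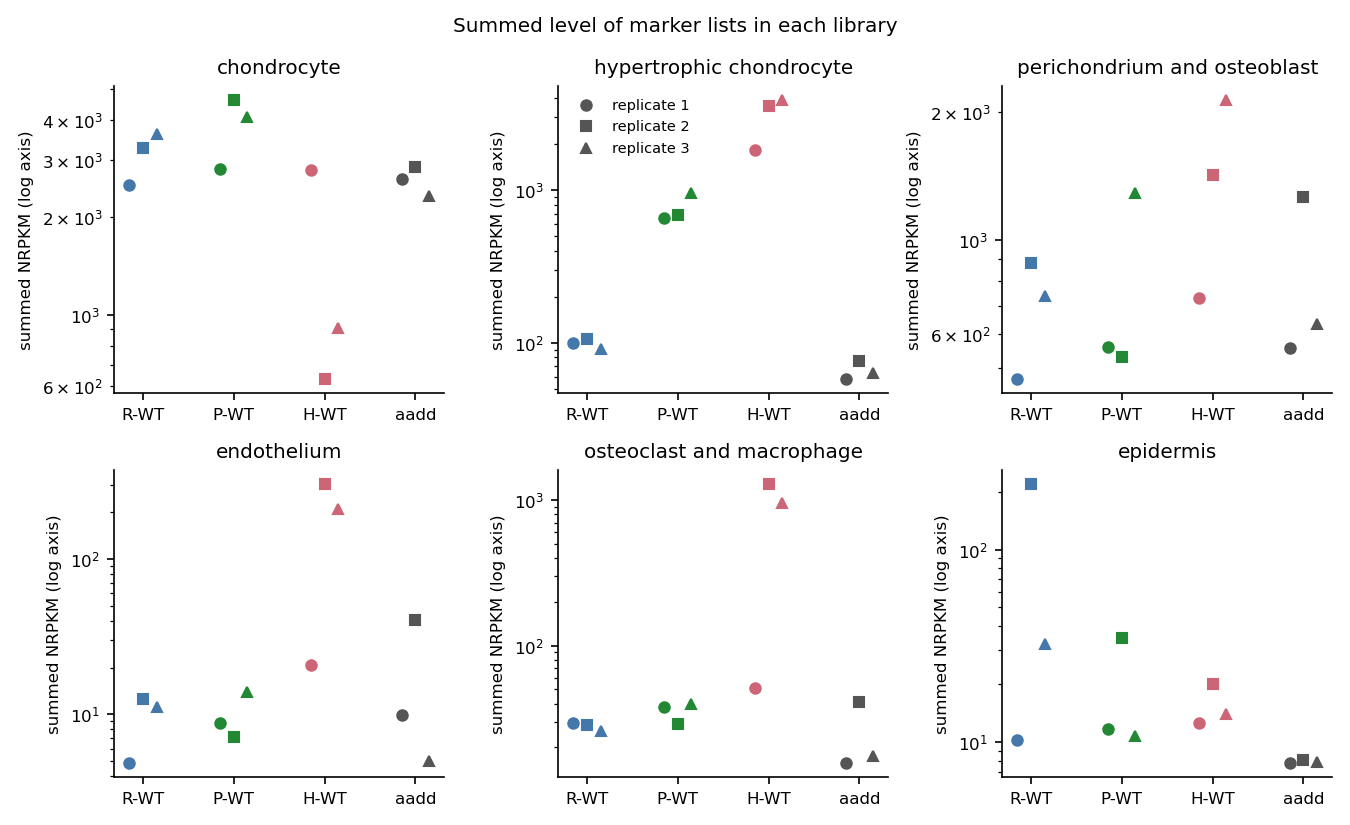
Summed NRPKM of marker lists in each library on a log axis, with 1 symbol per replicate number and 1 colour per group. H-WT replicate 1 keeps a chondrocyte sum of 2803 and has low endothelial (20.8) and osteoclast and macrophage (51.0) sums, and R-WT replicate 2 has the highest epidermal sum (219).

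*Lef1* lies on chromosome 3 (mm10, chr3:131110471-131223331, plus strand). RefSeq windows of 250 bases before annotated transcript starts are shown for 3 starts to place the 2 members whose windows hold a TCF-type word. The first window, before the most upstream start of *Lef1*, is shown because *Lef1* had the widest gap between *aadd* and R-WT among the members. The other windows precede starts inside *Lef1* and *Tcf7l2* and are those in which a word was found. The words searched were the core CTTTG followed by any 2 bases that are each A or T, on both strands, and capitals mark a match. The windows are in GRCm38.p6, the assembly of mm10, on the plus strand, at chr3:131110047-131110296, chr3:131156044-131156293 and chr19:55895071-55895320.
Lef1, most upstream start: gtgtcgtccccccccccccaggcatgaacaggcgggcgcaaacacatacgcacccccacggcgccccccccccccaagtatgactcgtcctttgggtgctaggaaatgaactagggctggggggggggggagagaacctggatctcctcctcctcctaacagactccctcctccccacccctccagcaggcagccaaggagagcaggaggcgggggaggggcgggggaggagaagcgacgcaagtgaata
Lef1, internal start: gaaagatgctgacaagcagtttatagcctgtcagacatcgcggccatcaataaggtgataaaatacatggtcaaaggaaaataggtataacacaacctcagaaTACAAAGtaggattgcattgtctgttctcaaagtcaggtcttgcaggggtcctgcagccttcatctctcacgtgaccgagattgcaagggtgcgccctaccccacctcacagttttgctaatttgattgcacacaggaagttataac
Tcf7l2, internal start: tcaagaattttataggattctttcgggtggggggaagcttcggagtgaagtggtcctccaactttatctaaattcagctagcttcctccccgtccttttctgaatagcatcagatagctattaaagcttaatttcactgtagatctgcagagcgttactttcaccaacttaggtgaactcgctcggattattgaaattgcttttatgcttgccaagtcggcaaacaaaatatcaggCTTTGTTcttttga

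The match before the internal *Lef1* start, TACAAAG, begins 147 bases before that start, which lies 45823 bases downstream of the start of the *Lef1* row. The match in *Tcf7l2*, CTTTGTT, begins 14 bases before a start 153511 bases into the gene. Of 12 windows of the members, these 2 held a word, while 14.8% of 32851 windows of the same length over all genes did. A match is a description of letters, and the files give one value per gene with no start or isoform. Genes of this family are known for shorter proteins made from internal starts that lack the beta-catenin binding end, and a gene level value sums over all forms.

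Among the 4 groups, *Lef1*, an activator of Wnt target genes, was highest in R-WT and lowest in *aadd*. It measured 26.6, 37.0 and 15.0 NRPKM in R-WT, 20.6, 17.3 and 13.6 in P-WT, 9.12, 5.20 and 6.30 in H-WT, and 2.12, 1.79 and 2.31 in *aadd*. All *aadd* libraries lay below all WT libraries, all H-WT libraries lay below all R-WT and P-WT libraries, and R-WT and P-WT overlapped. Means were 26.2 ± 11.0 (SD, n = 3), 17.2 ± 3.53, 6.87 ± 2.02 and 2.07 ± 0.264 NRPKM in that order. The mean of *aadd* was 12.6-fold lower than that of R-WT, 8.29-fold lower than that of P-WT and 3.32-fold lower than that of H-WT. On the log2(NRPKM + 0.1) scale, used for every log2 difference here, *aadd* minus R-WT was -3.51 (SE 0.33). Without R-WT replicate 2, which had both the highest *Lef1* and the highest epidermal sum, the difference was -3.22. The *aadd* values rest on about 14 to 23 reads per library and those of R-WT on about 134 to 310, taking the annotated exon length of 3482 bases. No other gene row overlaps *Lef1*.

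Going along the WT growth plate, the log2 difference of *Lef1* was -0.53 (SE 0.35) for P-WT minus R-WT, -1.33 (SE 0.28) for H-WT minus P-WT and -1.86 (SE 0.38) for H-WT minus R-WT. Without H-WT replicate 1 the last of these was -2.08. The *Lef1* level of that library, 9.12 NRPKM, was the highest of the H-WT libraries.

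*Tcf7* (chr11:52252295-52283014, minus strand), which encodes TCF1, ran the other way along the growth plate. Its values were 1.74, 2.09 and 3.09 NRPKM in R-WT, 23.0, 10.4 and 27.8 in P-WT, 68.4, 35.7 and 46.2 in H-WT, and 0.836, 2.54 and 2.65 in *aadd*. The 3 WT compartments did not overlap each other, and *aadd* overlapped R-WT and lay below P-WT and H-WT. Means were 2.31 ± 0.700, 20.4 ± 8.96, 50.1 ± 16.7 and 2.01 ± 1.02 NRPKM (SD, n = 3), so that H-WT was 21.7-fold above R-WT and 2.46-fold above P-WT. The log2 differences were 3.01 (SE 0.41) for P-WT minus R-WT, 1.36 (SE 0.43) for H-WT minus P-WT and 4.37 (SE 0.32) for H-WT minus R-WT. For *aadd* minus R-WT it was -0.31 (SE 0.45), a range that spans 0, with about 12 to 20 reads behind each R-WT value and 5 to 19 behind each *aadd* value. The highest *Tcf7* value, 68.4, was in H-WT replicate 1, the H-WT library with the lowest endothelial and osteoclast sums, and without it H-WT minus R-WT was 4.12. Perichondrium and osteoblast markers summed to 470 to 884 NRPKM in R-WT, 530 to 1291 in P-WT, 732 to 2133 in H-WT and 558 to 1261 in *aadd*, overlapping between P-WT and H-WT. Hypertrophic sums (90.8 to 105, 656 to 957, 1831 to 3883 and 57.4 to 76.0) did not overlap between groups. That list includes *Ibsp*, *Sp7*, *Alpl* and *Spp1*, which osteoblasts also express, so these sums do not separate the cell types. In H-WT *Ibsp* alone was at 718 to 1331 and *Spp1* ranged from 24.1 to 1083. *Vegfa*, also listed, overlapped between R-WT (28.1 to 57.6) and H-WT (18.0 to 48.1). The part of either cell type in the *Tcf7* differences was not tested. The row A630014C17Rik overlaps *Tcf7* and is listed at 0 in every library.

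*Tcf7l1* (chr6:72626380-72788956, minus strand), the family member known chiefly as a repressor, had the highest mean of the family in R-WT, P-WT and *aadd*. R-WT libraries measured 62.8, 60.5 and 52.1 NRPKM, P-WT 64.9, 46.8 and 41.6, H-WT 58.0, 22.4 and 23.0, and *aadd* 39.9, 56.0 and 53.0. Every pair of groups overlapped. Means were 58.5 ± 5.64, 51.1 ± 12.2, 34.5 ± 20.4 and 49.6 ± 8.58 NRPKM (SD, n = 3). The spread in H-WT came from replicate 1, at 58.0. With all 3 H-WT libraries, H-WT minus R-WT was -0.91 (SE 0.39) on the log2 scale, and without replicate 1 it was -1.36. That library also kept a chondrocyte marker sum like those of R-WT, and the part of other cell types in this difference was not tested. The overlapping row Gm15401 was at 6.95 to 21.7 NRPKM, and reads of the 2 rows could not be assigned to one of them where strand was not used.

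*Tcf7l2* (chr19:55741810-55933655, plus strand), which encodes TCF4, was lowest in P-WT. Its values were 30.3, 37.9 and 28.6 NRPKM in R-WT, 21.6, 20.0 and 18.2 in P-WT, 38.1, 33.2 and 35.3 in H-WT, and 27.3, 31.7 and 36.2 in *aadd*. All P-WT libraries lay below all libraries of the other groups, which overlapped among themselves. Means were 32.3 ± 4.94, 19.9 ± 1.70, 35.5 ± 2.48 and 31.7 ± 4.41 NRPKM (SD, n = 3), and the log2 difference was -0.69 (SE 0.18) for P-WT minus R-WT, 0.83 (SE 0.17) for H-WT minus P-WT and -0.02 (SE 0.19) for *aadd* minus R-WT. H-WT replicate 1 was not apart here, and H-WT minus P-WT was 0.78 without it. The row Ppnr, which overlaps *Tcf7l2*, was at 6.38 to 10.8 NRPKM in P-WT and at 10.8 to 19.7 in the other groups.

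**Figure D2:**
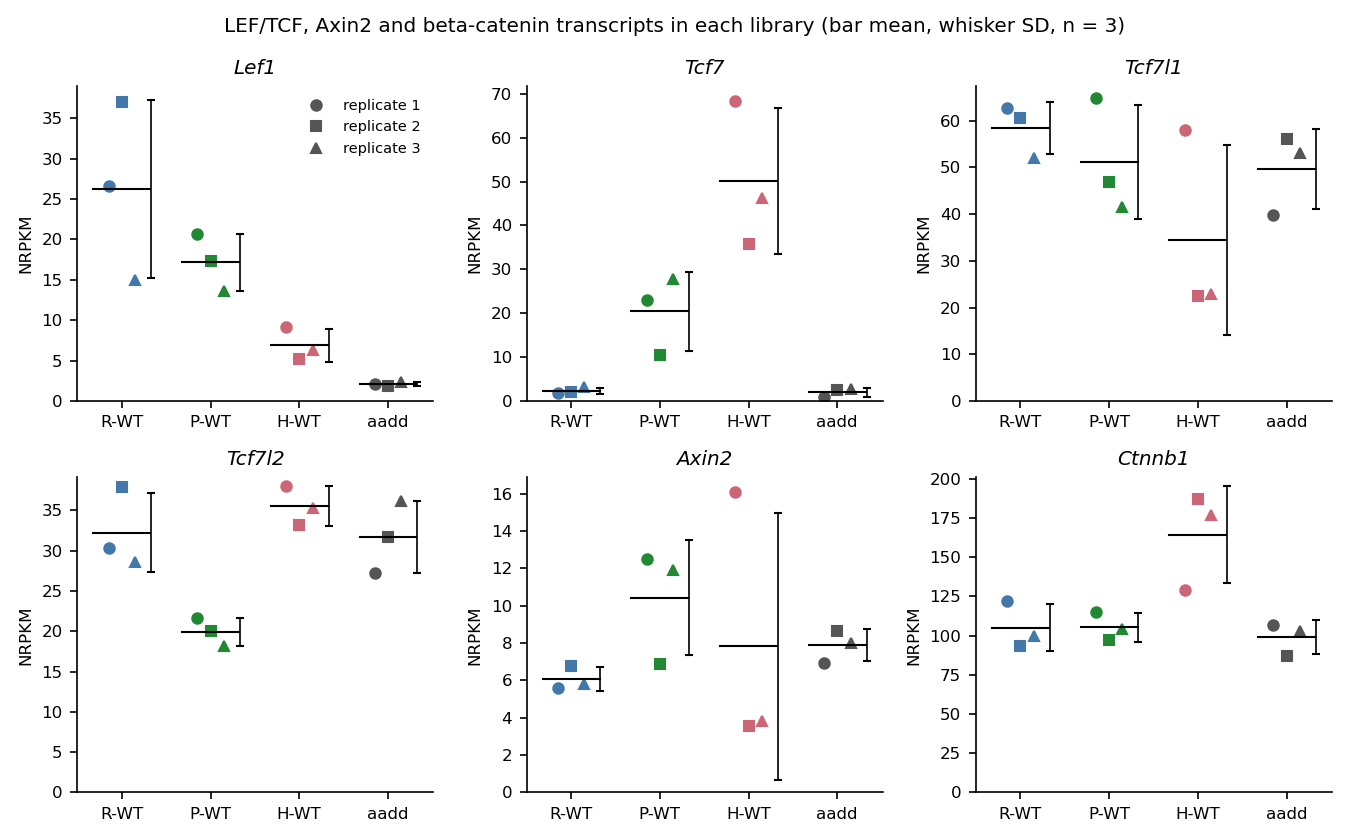
NRPKM of the 6 genes in each library (symbols, 1 shape per replicate number), with group means (bars) and SD (whiskers, n = 3), on linear axes from 0. *Lef1* goes from a mean of 26.2 in R-WT to 6.87 in H-WT and 2.07 in *aadd*, *Tcf7* from 2.31 to 50.1 and 2.01, and H-WT replicate 1 stands apart for *Tcf7l1* (58.0) and *Axin2* (16.1).

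Since NRPKM is scaled per length, the 4 family members can be set against each other within a library. Such a share does not depend on scaling by a single factor per library. Whether the further normalization was of that kind is not given in the sources used here. In R-WT, *Lef1* made up 21.9%, 26.9% and 15.2% of the summed LEF/TCF NRPKM and *Tcf7* made up 1.43%, 1.52% and 3.13%. In P-WT both were at similar shares, 15.9%, 18.3% and 13.4% for *Lef1* against 17.7%, 11.0% and 27.4% for *Tcf7*. In H-WT the order was turned, with *Tcf7* at 39.4%, 37.0% and 41.7% and *Lef1* at 5.25%, 5.39% and 5.69%. These H-WT shares of *Lef1* and *Tcf7* hardly varied between libraries, replicate 1 included. In the same libraries *Tcf7l1* was at 33.4%, 23.2% and 20.7% and *Tcf7l2* at 21.9%, 34.4% and 31.9%, with replicate 1 apart for both. The part of the cell mixture in these shares was not tested.

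In *aadd* *Lef1* and *Tcf7* were both minor, *Lef1* at 3.03%, 1.94% and 2.45% and *Tcf7* at 1.19%, 2.76% and 2.81%. *Tcf7l1* made up 56.8%, 60.8% and 56.3% there and *Tcf7l2* 39.0%, 34.5% and 38.4%, both above their shares in every WT library, for *Tcf7l2* by 34.5% against 34.4%. Shares of a library always add up to the whole, so low shares of some genes raise those of the others. The levels of these genes did not rise in *aadd*. Their means were 49.6 NRPKM against 58.5 in R-WT for *Tcf7l1* and 31.7 against 32.3 for *Tcf7l2*, with overlapping libraries. The summed NRPKM of the family was 85.5 ± 13.3 in *aadd* (70.2 to 94.1) and 119 ± 19.4 in R-WT (98.9 to 137), with no overlap between the 6 libraries. *Lef1* is part of this sum, at a mean of 2.07 in *aadd* and 26.2 in R-WT. P-WT and H-WT sums were 109 ± 18.9 and 127 ± 41.0 (SD, n = 3), and both overlapped R-WT. Mean shares of *Lef1* over the libraries of a group were 21.3% ± 5.88, 15.9% ± 2.46, 5.44% ± 0.223 and 2.47% ± 0.542 (SD, n = 3) in R-WT, P-WT, H-WT and *aadd*.

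**Figure D3:**
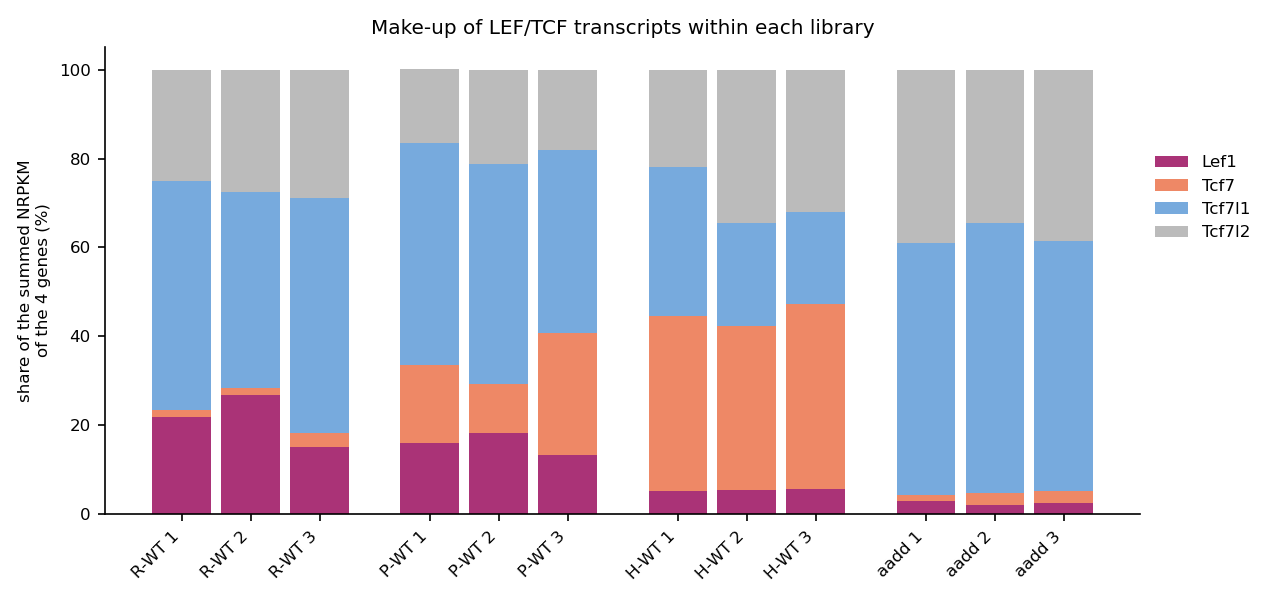
Stacked shares (%) of *Lef1*, *Tcf7*, *Tcf7l1* and *Tcf7l2* in their summed NRPKM, 1 bar per library. *Tcf7* grows from 1.43 to 3.13% in R-WT to 37.0 to 41.7% in H-WT while *Lef1* shrinks to 5.25 to 5.69%, and in *aadd* *Tcf7l1* and *Tcf7l2* fill nearly the whole bar.

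*Ctnnb1* (chr9:120933400-120960507, plus strand), whose protein both activates LEF/TCF factors and ties cadherins to the cytoskeleton, was the most abundant member in every library. It measured 122, 93.4 and 100 NRPKM in R-WT, 115, 96.9 and 104 in P-WT, 129, 187 and 177 in H-WT, and 107, 86.9 and 103 in *aadd*. H-WT lay above all other libraries and the remaining groups overlapped. Means were 105 ± 14.7, 105 ± 9.18, 164 ± 31.1 and 99.0 ± 10.6 NRPKM (SD, n = 3). The log2 difference was 0.64 (SE 0.22) for H-WT minus R-WT, 0.80 without H-WT replicate 1, and -0.08 (SE 0.18) for *aadd* minus R-WT. The activity of beta-catenin is set mainly through its protein, which was not measured.

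*Axin2* (chr11:108920349-108950781, plus strand), itself a direct target of the pathway, was the least abundant member on average in R-WT apart from *Tcf7*. R-WT libraries measured 5.58, 6.79 and 5.83 NRPKM, P-WT 12.5, 6.90 and 11.9, H-WT 16.1, 3.56 and 3.85, and *aadd* 6.96, 8.66 and 8.01. P-WT and *aadd* each lay above R-WT without overlap, in P-WT by as little as 6.90 against 6.79. H-WT held both the highest and the lowest values of all 12 libraries. Means were 6.07 ± 0.636, 10.4 ± 3.06, 7.83 ± 7.15 and 7.88 ± 0.856 NRPKM (SD, n = 3), and the log2 difference was 0.73 (SE 0.26) for P-WT minus R-WT and 0.37 (SE 0.17) for *aadd* minus R-WT. For H-WT minus R-WT it was 0.00 (SE 0.58) with all libraries and -0.69 without H-WT replicate 1, so that 1 library set its sign. The part of other cell types in this was not tested. Values of *Axin2* in *aadd*, where *Lef1* was lowest, therefore did not lie below those of R-WT.

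The criteria of the study for differential genes are a fold change (FC) of at least 2 among WT compartments, or of at least 1.5 when *aadd* is set against R-WT, together with an unadjusted *P* up to 0.05, and they are called the criteria below. For the members they were part of what was known when the genes were chosen, and nothing is read from these counts. From R-WT to P-WT 1 member (*Tcf7*) met them as higher and 0 as lower, against 2.56% and 2.97% of 10936 genes tested, and 3 members did not overlap, against 24.0%. From P-WT to H-WT 1 member was higher (*Tcf7*) and 1 lower (*Lef1*), against 5.32% and 4.34%, and 4 did not overlap, against 24.2%. From R-WT to H-WT the same pair met them in the same directions, against 5.84% and 7.20%, and 3 did not overlap, against 32.0%. Between *aadd* and R-WT 0 members were higher and 1 lower (*Lef1*), against 3.78% and 2.78%, and 2 did not overlap, against 15.4%. The comparisons share libraries, R-WT in 3 of them and P-WT and H-WT in 2 each, and their values are not independent of each other.

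The genes with the pattern most like each member were sought by the root mean square (RMS) difference over the 12 libraries, after each gene's own mean log2 value had been subtracted. Nearest to *Lef1* was *Shox2*, a homeobox gene needed for the proximal limb skeleton, at an RMS of 0.50, where *Lef1* itself varied by 1.40 about its mean. *Shox2* was at 63.4, 61.0 and 33.7 NRPKM in R-WT, 56.2, 95.7 and 58.0 in P-WT, up to 30.8 in H-WT, and 3.33, 4.56 and 5.24 in *aadd*. As for *Lef1*, the *aadd* libraries lay below all WT libraries and H-WT below R-WT and P-WT. *Sh3tc2* (RMS 0.67) and *Mfap3l* (RMS 0.89) followed.

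Nearest to *Tcf7* were *Ifitm5*, a marker of mineralizing bone cells, at an RMS of 0.44, *Sgms2*, a sphingomyelin synthase, at 0.56 and *Lpar3*, a lysophosphatidic acid receptor, at 0.60, where *Tcf7* varied by 2.06 about its own mean. *Ifitm5* had means of 10.4, 88.3, 225 and 11.3 NRPKM in R-WT, P-WT, H-WT and *aadd*. The other members varied less, and their nearest genes were *Mterfd2*, *Pbld1* and *Gpr125* for *Tcf7l1* (RMS 0.19 to 0.21), *Rnf13*, *Sun2* and *Apba3* for *Tcf7l2* (0.17 to 0.18), *1700034J05Rik*, *Mageb16-ps1* and *Cd3d* for *Axin2* (0.28 to 0.31), and *Arl8b*, *Psme3* and *Dazap2* for *Ctnnb1* (0.09 to 0.10). A small RMS is easier to reach for a gene that varies little.

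The rest of the pathway was followed through 5 lists holding 93 genes, of which 74 passed the filter, and these were tested with limma across all 10936 genes. Like the members, the lists were chosen with earlier results of these data known. Their counts and medians beside those of all genes are therefore a description, and no enrichment is read from them. Of the 74, 4 rose and 2 fell by the criteria from R-WT to P-WT, 11 rose and 5 fell from P-WT to H-WT, 8 rose and 7 fell from R-WT to H-WT, and 7 were higher and 4 lower in *aadd* than in R-WT. Over all 10936 genes, 280 rose and 325 fell, 582 rose and 475 fell, 639 rose and 787 fell, and 413 were higher and 304 lower, in the same order. After adjustment (Benjamini-Hochberg over all genes tested, limma) 2, 0, 9 and 0 of the 74 had an adjusted *P* under 0.05, while 14, 25, 25 and 14 had an unadjusted *P* up to 0.05. Over all genes the adjusted counts were 68, 0, 696 and 13 and the unadjusted ones 1865, 2115, 2890 and 1048. Without H-WT replicate 1, 21 of the 74 passed adjustment between P-WT and H-WT and 23 between R-WT and H-WT, and over all genes 1905 and 2651 did. When same-numbered libraries were blocked in the first comparison, 9 of 10936 genes and 0 of the 74 passed adjustment. With each library left out in turn, the genes called in all 6 fits were 3 of 6 (*Dkk1*, *Msx2* and *Sfrp2*), 10 of 16, 10 of 15 and 5 of 11 (*Cdh2*, *Sfrp2*, *Tle3*, *Tle4* and *Twist1*) in the order above, and calls lost that way are given beside the genes.

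The list of the Wnt relay and the destruction complex, which carry the signal to beta-catenin, held 19 genes tested, of which none met the criteria in 3 of the comparisons and 1 rose from R-WT to H-WT. That gene was *Ppp2r5a*, a regulatory subunit of protein phosphatase 2A, at 14.5, 11.3 and 9.97 NRPKM in R-WT and 20.9, 33.3 and 30.8 in H-WT (log2 difference 1.23, SE 0.25, adjusted *P* = 0.043 in limma, and 1.43 without H-WT replicate 1). *Gsk3b*, the kinase that marks beta-catenin, had a log2 difference of 0.95 in the same comparison (adjusted *P* = 0.032), short of an FC of 2. Libraries of 6 of the 19 genes did not overlap between R-WT and H-WT, against 32.0% of all genes tested. Between P-WT and H-WT those of 6 did not overlap, against 24.2%. Medians of the list were -0.02, 0.29, 0.15 and 0.06 from P-WT minus R-WT to *aadd* minus R-WT, beside -0.06, 0.04, -0.02 and 0.01 for all genes tested. The most abundant of the list on average were *Tnks2*, a tankyrase that destabilizes Axin, and *Skp1a*, a ubiquitin ligase component, at 52.0 and 51.0 NRPKM over all libraries, and neither met the criteria in any comparison.

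Of 15 co-activators, 0 changed by the criteria between R-WT and P-WT or between P-WT and H-WT. *Bcl9*, an adaptor that binds beta-catenin, fell from 51.6, 48.1 and 53.3 NRPKM in R-WT to 35.3, 19.4 and 21.2 in H-WT (log2 difference -1.06, SE 0.26, adjusted *P* = 0.066 in limma), a call lost without H-WT replicate 2 or 3, while without replicate 1 it was -1.33 (adjusted *P* = 0.0044). *Tbl1xr1*, an exchange factor for co-repressors, was the 1 gene called in *aadd*, at 20.1, 20.4 and 26.2 NRPKM against 15.7, 12.4 and 14.7 in R-WT (0.63, SE 0.19, adjusted *P* = 0.35), and it was not called without R-WT replicate 2 or *aadd* replicate 3. The acetyltransferase *Crebbp* and the methyltransferase *Carm1*, at 73.8 and 73.6 NRPKM over all libraries, led the list in level and met the criteria nowhere. List medians were -0.23, 0.08, -0.06 and -0.12 in the order above.

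Calls among co-repressors differed in direction by paralog. Between *aadd* and R-WT, 3 of 14 tested genes were higher (*Tle1*, *Tle4* and *Aes*) and 1 lower (*Tle3*), against 3.78% and 2.78% of all genes tested. None of these passed adjustment. *Tle1* was at 9.11, 11.0 and 13.3 NRPKM in R-WT and 20.7, 16.7 and 15.2 in *aadd* (log2 difference 0.66, SE 0.21, adjusted *P* = 0.38 in limma). *Tle4* was at 23.5, 13.6 and 16.8 in R-WT and 34.2, 26.4 and 42.2 in *aadd* (0.94, SE 0.27, adjusted *P* = 0.33). In contrast to these Groucho genes, *Tle3* was at 13.2, 14.6 and 7.62 in R-WT and 5.66, 4.99 and 3.74 in *aadd* (-1.25, SE 0.29, adjusted *P* = 0.25). *Aes*, now also known as *Tle5*, a short family member that antagonizes the long ones, was at 4.45, 8.48 and 5.91 in R-WT and 11.4, 19.6 and 9.41 in *aadd* (1.07, SE 0.34, adjusted *P* = 0.38). For all 4 genes, which were picked by their calls in these same libraries, the groups did not overlap, as for 15.4% of all genes tested. Each remained called without R-WT replicate 2. *Tle3* and *Tle4* were called whichever library was left out, *Aes* was not called without R-WT replicate 1, and *Tle1* was not called without R-WT replicate 1 or *aadd* replicate 1. The list median of *aadd* minus R-WT was -0.06.

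Along the WT growth plate none of the 14 changed by the criteria between R-WT and P-WT, where the list median was -0.29. From R-WT to H-WT *Aes* rose to 13.8, 26.8 and 27.3 NRPKM (1.81, SE 0.36, adjusted *P* = 0.041, and 2.14 without H-WT replicate 1) and *Tle2* to 4.73, 10.1 and 11.1 from 2.08, 5.06 and 3.86 (1.21, SE 0.45, adjusted *P* = 0.15). *Tle1* fell to 3.53, 5.78 and 5.66 (-1.16, SE 0.26, adjusted *P* = 0.055), by less than an FC of 2 once H-WT replicate 1 was left out. *Sox9*, the master regulator of chondrocytes and a direct inhibitor of beta-catenin, fell from 174, 160 and 156 to 143, 12.9 and 17.6 (-2.35, SE 0.88, adjusted *P* = 0.16). The *Sox9* value of H-WT replicate 1 stood near R-WT, and without that library the difference was -3.42. The calls of *Sox9* were lost when any one of the other libraries of a comparison was left out, and that of *Tle2* from R-WT to H-WT was lost without R-WT replicate 1 or 3 or H-WT replicate 2 or 3. From P-WT to H-WT the genes called were *Aes* and *Tle2* as higher and *Sox9* as lower, and list medians were 0.21 for that step and -0.02 for H-WT minus R-WT. Highest of the list after *Sox9* was the histone deacetylase *Hdac1*, at 43.0 NRPKM over all libraries and called in no comparison.

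Of 7 partners of the catenins at adherens junctions tested, 4 rose and 0 fell from P-WT to H-WT (*Cdh2*, *Cdh5*, *Cdh11* and *Jup*) and 2 rose from R-WT to H-WT (*Cdh2* and *Cdh5*), with list medians of 1.03 and 0.88. Without H-WT replicate 1 the counts were 5 and 4, and both medians were 1.31. In the first comparison none passed adjustment with all libraries, and the lowest-moving partners, *Ctnna1* and *Ctnnd1*, had log2 differences of 0.68 and 0.69. *Cdh2*, N-cadherin, was at 5.38, 4.30 and 4.81 NRPKM in R-WT, 18.0, 5.39 and 22.1 in P-WT and 57.0, 85.2 and 82.3 in H-WT (H-WT minus R-WT 3.91, SE 0.22, adjusted *P* = 0.00084 in limma). It was high in each H-WT library, and without replicate 1 the difference was 4.09. *Cdh2* was also called from R-WT to P-WT, at a log2 difference of 1.41 that kept its call only when P-WT replicate 2 was the library left out, and in *aadd*, where it was at 11.3, 10.1 and 13.7 (1.25, SE 0.18, adjusted *P* = 0.096).

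*Cdh5*, the cadherin of blood vessels, went a different way within H-WT, at 7.30, 96.5 and 72.5 NRPKM against 0.340, 3.16 and 2.65 in R-WT (4.56, SE 1.20, adjusted *P* = 0.077). *Jup*, plakoglobin, was at 2.93, 19.1 and 18.2 in H-WT and 0.998, 1.20 and 3.59 in P-WT (2.55, SE 0.84, adjusted *P* = 0.21). Both were low in H-WT replicate 1, as was the endothelial sum, of which *Cdh5* is itself a part. *Jup* was also at 9.26 NRPKM in R-WT replicate 2, the library with the highest epidermal sum. Without H-WT replicate 1 *Cdh5* differed by 5.73 (adjusted *P* = 0.011) from R-WT and *Jup* by 3.43 (adjusted *P* = 0.019) from P-WT. *Cdh11* was at 61.4, 77.8 and 79.6 in H-WT and 52.9, 22.6 and 37.2 in P-WT (1.03, SE 0.34, adjusted *P* = 0.20). The call of *Cdh11* was lost without P-WT replicate 2 or H-WT replicate 2 or 3, and that of *Jup* without these or P-WT replicate 1. *Ctnnd1*, p120 catenin, led the list in level with *Cdh11*, at 52.8 and 50.1 NRPKM over all libraries, and was called in no comparison. List medians were -0.02 for P-WT minus R-WT and 0.32 for *aadd* minus R-WT.

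**Figure D4:**
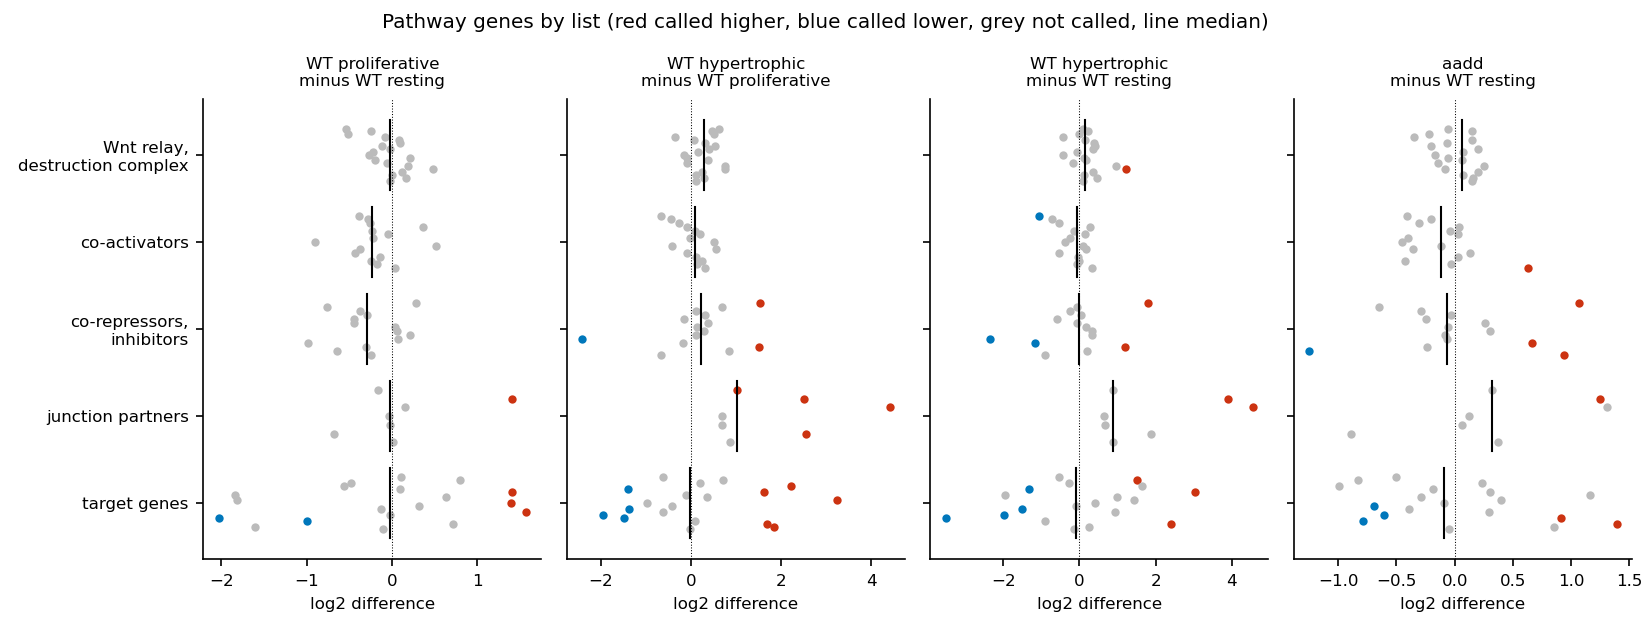
Log2 difference of each tested gene of the 5 lists in the 4 comparisons, with the list median as a line, red for genes called higher, blue for genes called lower and grey for the rest (scales differ between panels). Of the relay genes 1 is called in any panel (*Ppp2r5a*, 1.23), the junction partners have medians of 1.03 and 0.88 in the H-WT panels, and called target genes lie on both sides of 0 in each panel.

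Known targets of the pathway other than *Axin2* did not move together. Of 30 listed, 19 passed the filter, and among the 11 that did not were *Sp5*, *Nkd2* and *Lgr5*. From R-WT to P-WT 3 rose (*Dkk1*, *Msx2* and *Notum*) and 2 fell (*Sfrp2* and *Tnfrsf11b*), from P-WT to H-WT 5 rose and 4 fell, from R-WT to H-WT 3 rose and 4 fell, and in *aadd* 2 were higher and 3 lower. List medians were -0.02, -0.02, -0.10 and -0.09 in that order. Without R-WT replicate 2 the first of these counts became 2 and 1, with *Notum* and *Tnfrsf11b* no longer called. Leaving out P-WT replicate 1 also ended both calls, as did R-WT replicate 1 or P-WT replicate 2 for *Notum* and P-WT replicate 3 for *Tnfrsf11b*.

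Secreted inhibitors of Wnt ligands moved in opposite directions along the WT growth plate. *Dkk1*, which blocks the LRP co-receptors, was at 3.94, 6.85 and 7.17 NRPKM in R-WT, 15.7, 12.4 and 19.1 in P-WT and 50.8, 38.2 and 57.6 in H-WT (H-WT minus R-WT 3.04, SE 0.30, adjusted *P* = 0.0051 in limma, and 3.0 without H-WT replicate 1). Like *Tcf7*, it did not overlap between the WT compartments, and at 5.78, 9.76 and 6.41 *aadd* overlapped R-WT. *Sfrp2*, a secreted Frizzled-like protein that binds Wnt ligands, was at 50.1, 63.2 and 35.3 in R-WT, 14.1, 12 and 9.55 in P-WT, 5.56, 5.40 and 2.35 in H-WT, and 89.1, 83.3 and 99.9 in *aadd*. *Sfrp2* fell from R-WT to P-WT (-2.03, SE 0.27, adjusted *P* = 0.038, and 0.069 with the replicate block) and from R-WT to H-WT (-3.51, SE 0.40, adjusted *P* = 0.0083), and in *aadd* it was higher than in R-WT (0.91, SE 0.24, adjusted *P* = 0.31). All *aadd* libraries lay above all WT libraries for this gene. *Wif1*, another ligand-binding inhibitor, rose from 4.92, 2.02 and 8.92 in P-WT to 10.4, 23.5 and 17.8 in H-WT (1.84, SE 0.58, adjusted *P* = 0.19), a call lost without H-WT replicate 2. In R-WT *Wif1* was at 4.61, 14.8 and 37.8, which overlapped H-WT (H-WT minus R-WT 0.25, SE 0.76). *Notum*, an enzyme that inactivates Wnt ligands, was at 2.72, 1.18 and 2.75 in R-WT and 12.7, 7.20 and 2.75 in P-WT (1.57, SE 0.59, adjusted *P* = 0.27), and its lowest P-WT value sat next to the highest of R-WT.

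*Nkd1*, which binds Dishevelled, fell from 6.45, 8.46 and 8.26 NRPKM in R-WT to 3.72, 2.16 and 2.26 in H-WT (-1.51, SE 0.26, adjusted *P* = 0.029 in limma). *Dact1*, a further Dishevelled partner, fell from 58.1, 44.6 and 45.2 to 38.4, 14.4 and 13.4 (-1.32, SE 0.42, adjusted *P* = 0.11). *Prickle1*, of the planar polarity branch, fell from 44.9, 41.6 and 39.7 to 23.4, 7.61 and 6.56 (-1.98, SE 0.48, adjusted *P* = 0.064), and was also lower in *aadd*, at 34.4, 22.2 and 27.0 (-0.61, SE 0.20, adjusted *P* = 0.38), where the call was lost without R-WT replicate 1 or *aadd* replicate 2. The call of *Dact1* was lost without R-WT replicate 1 or H-WT replicate 2 or 3. In *Nkd1*, *Dact1* and *Prickle1* alike, H-WT replicate 1 lay between R-WT and the other H-WT libraries, and without it the differences were -1.75, -1.81 and -2.56 (adjusted *P* = 0.0035, 0.0032 and 0.001 in limma). *Bambi*, a decoy receptor of the BMP and TGF-beta pathway, rose from 9.14, 8.10 and 3.63 in R-WT to 24.1, 15.1 and 17.3 in H-WT (1.5, SE 0.39, adjusted *P* = 0.076).

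Transcription factors and growth genes on the target list showed no shared direction. *Msx2*, a homeobox factor, rose from 3.44, 3.04 and 2.89 NRPKM in R-WT to 9.19, 7.50 and 8.33 in P-WT (1.39, SE 0.16, adjusted *P* = 0.027 in limma, and 0.072 with the replicate block). *Twist1*, a bHLH factor of early bone cells and mesenchyme, rose from 2.28, 2.81 and 4.80 in R-WT to 10.5, 19.7 and 23.9 in H-WT (2.40, SE 0.40, adjusted *P* = 0.026, and 2.75 without H-WT replicate 1), and *aadd* was higher than R-WT at 5.95, 10.2 and 9.80 (1.39, SE 0.33, adjusted *P* = 0.25). *Myc*, the most abundant of the list on average at 52.1 NRPKM, was lower in *aadd*, at 30.2, 29.2 and 43.3 against 66.9, 54.6 and 44.1 (-0.69, SE 0.24, adjusted *P* = 0.41), by a margin of 43.3 against 44.1 between the nearest libraries. *Ccnd1*, cyclin D1, was next at 47.2 NRPKM and was called in no comparison. *Tnfrsf11b*, osteoprotegerin, which restrains osteoclasts, was lower in P-WT (-1.0, SE 0.29, adjusted *P* = 0.19) and in *aadd* (-0.79, SE 0.30, adjusted *P* = 0.47) than in R-WT. Without any one of R-WT replicates 1 and 2 and *aadd* replicate 1, neither *Myc* nor *Tnfrsf11b* was called in *aadd*, nor was *Myc* without *aadd* replicate 2 or *Tnfrsf11b* without *aadd* replicate 3. From P-WT to H-WT the surface genes *Lgr6*, an R-spondin receptor (3.24, SE 0.62, adjusted *P* = 0.12), and *Cd44*, the hyaluronan receptor (2.21, SE 0.82, adjusted *P* = 0.23), rose, and *Cd44* was at 6.60 NRPKM in H-WT replicate 1 against 48.5 and 42.5 in the others. *Lgr6* was called whichever library was left out, and the call of *Cd44* was lost without H-WT replicate 2 or 3 or P-WT replicate 1 or 2. Without H-WT replicate 1 the differences of *Lgr6* and *Cd44* were 3.77 and 3.13 (adjusted *P* = 0.014 and 0.013). *Lgr6* was at 0.693, 11.7 and 12.6 NRPKM in R-WT, 1.05, 0.866 and 2.35 in P-WT and 6.23, 12.7 and 28.3 in H-WT, so that R-WT overlapped H-WT. Neither gene was called from R-WT to H-WT (1.43, SE 1.17 for *Lgr6* and 1.65, SE 0.96 for *Cd44*).

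**Figure D5:**
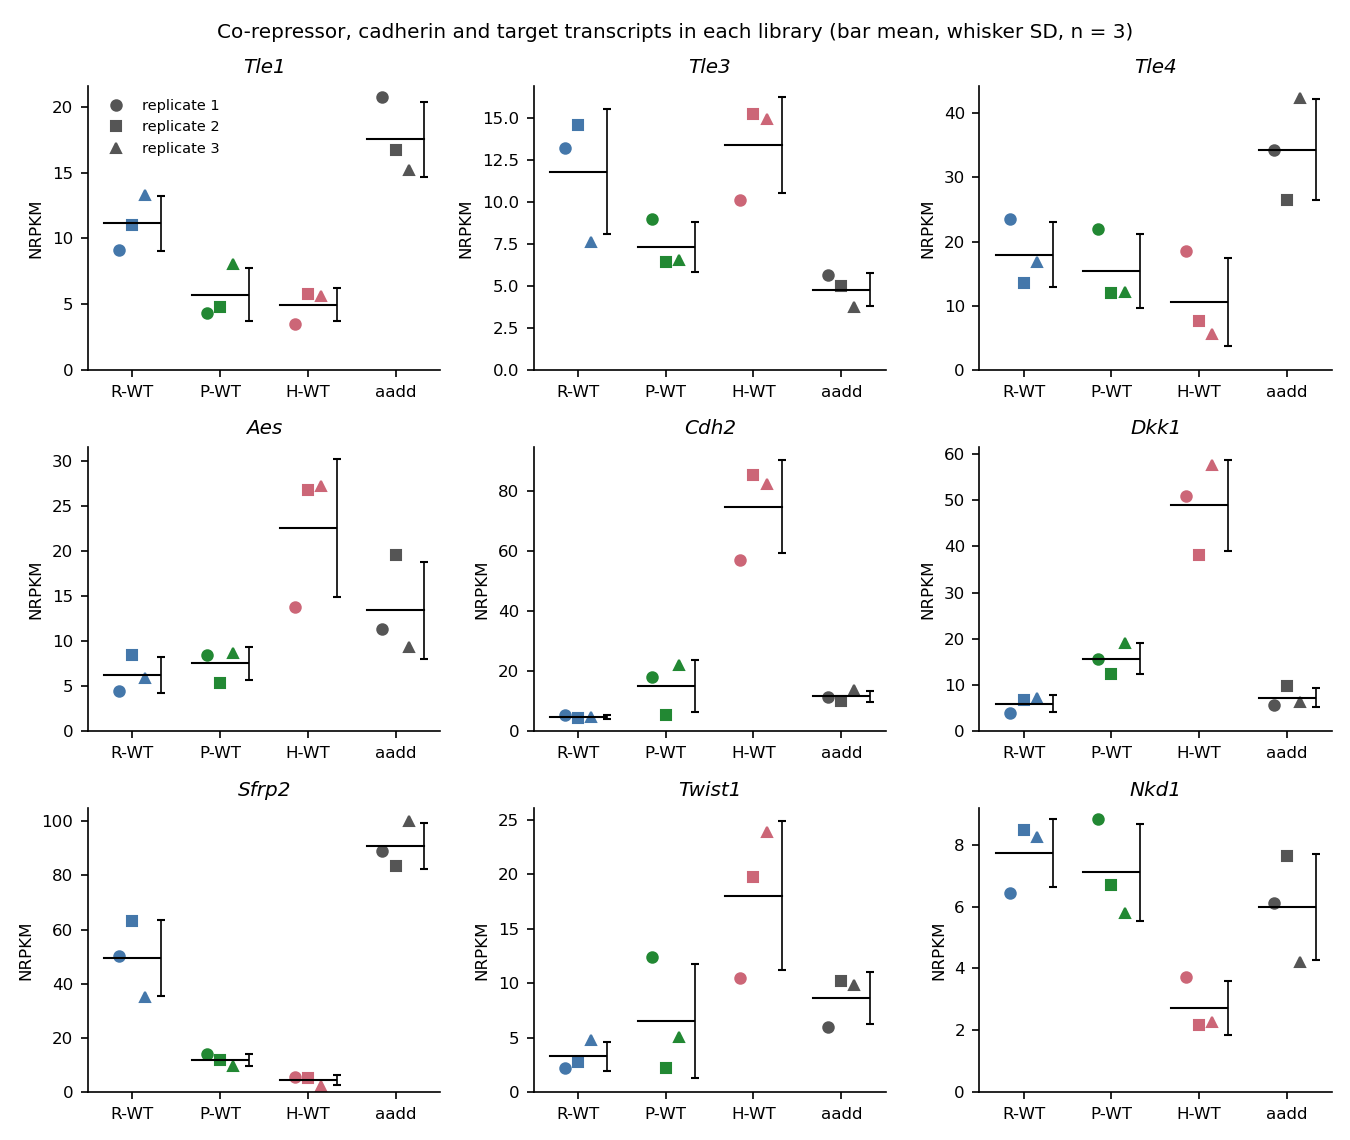
NRPKM of 4 TLE family genes, *Cdh2* and 4 target genes in each library (symbols), with group means (bars) and SD (whiskers, n = 3), on linear axes from 0. *Tle1* and *Tle4* are highest in *aadd* and *Tle3* lowest there, *Cdh2* and *Dkk1* are highest in H-WT, and *Sfrp2* goes from 35.3 to 63.2 in R-WT to 83.3 to 99.9 in *aadd* and 2.35 to 5.56 in H-WT.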

How the data were processed

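Values were deposited by the authors as RPKM normalized further between libraries (NRPKM), on a linear scale and before any filter. Per the study's methods, low-quality, multiply aligned and duplicate reads had been removed and values computed in GeneSpring. The submitters' processing notes name TopHat and mm10. The use of strand and the scaling between libraries are not given in the sources used here. RNA was amplified from small LCM samples, so that read depth overstates the number of molecules.

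Here limma 3.58.1 (R 4.3.3) was fitted to log2(NRPKM + 0.1), which understates the change of low genes. The 10936 genes that reached 5 NRPKM in 3 or more of 12 libraries entered, with the 6 libraries of 2 groups and no covariate. Tables and plots used matplotlib 3.10.9, pandas 2.3.3 and numpy 2.4.6 under Python 3.11.15. Depth was read from the most frequent value of single-exon genes, taken as 1 read, and reads per gene from the exon length of the longest principal transcript in GENCODE, so both are approximate. Sequences are from RefSeq (GRCm38.p6), and all 6 members matched. SE is that of the limma fit, and SD is over the 3 libraries.

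The members and lists were chosen with earlier results of these data known. Genes named were the 6 members, for each member the 3 nearest genes by RMS difference, and in each list and comparison up to 4 called genes with the largest log2 difference plus the 2 genes highest on average. *Gsk3b*, *Nkd1*, *Dact1*, *Bambi*, *Sp5*, *Nkd2*, *Lgr5* and single marker genes were added after their values were seen. Replicates carry numbers 1 to 3. After group means were subtracted, libraries with the same number correlated at r = 0.281, 0.179 and 0.198 over genes between P-WT and R-WT, so the replicate number was taken there as a possible pairing, although no source says what it marks and a supplementary table of the study numbers the same libraries in another order. Blocked values hold only for the deposited numbers. Alternatives were a replicate block, a single fit over all 12 libraries, quantile normalization, median-of-ratios rescaling, no filter, a pseudocount of 1 and each library left out. The procedure was tested on simulated data.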

Additional observations from a re-analysis of the deposited data

How the results depend on the processing

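The counts of pathway genes meeting the criteria (6, 16, 15 and 11 of 74 from P-WT minus R-WT to *aadd* minus R-WT) stayed within 1.5 times under a pseudocount of 1, no filter, both rescalings, 1 fit of all 12 libraries and the replicate block, which gave 7, 15, 17 and 12. Leaving out 1 library gave 3 to 10, 10 to 20, 11 to 20 and 8 to 15. Past 1.5 times, the first count was 10 without R-WT replicate 1 and 3 without R-WT replicate 2, and the second was 10 without H-WT replicate 2, each with fewer libraries and a cause that was not tested. Over all genes, P-WT against H-WT gave 1057 calls, and 2007, 705 and 658 without H-WT replicates 1, 2 and 3. Same-numbered libraries correlated at r of -0.097 to 0.280 in the other comparisons, not all above 0.1, and share only a number. Of 72 values of the members' log2 differences under other settings, 2 moved by more than the spread between replicates: *Tcf7* in H-WT minus R-WT was 3.92 with a pseudocount of 1, and *Tcf7l2* in H-WT minus P-WT was 0.72 with quantile normalization. Leaving out 1 library moved *Lef1* in *aadd* minus R-WT over -3.86 to -3.22, *Tcf7* in H-WT minus R-WT over 4.12 to 4.59 and *Axin2* in H-WT minus R-WT over -0.69 to 0.38. The fewest reads stand behind *Tcf7* in R-WT (about 12 to 20) and *aadd* (5 to 19) and behind *Lef1* in *aadd* (14 to 23), and whether depth limits the comparison of *Tcf7* between those groups was not tested.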
